A study of Mus musculus with 217 samples.

Results

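The lung endothelium was compared at 48 hr and 6 hr after lipopolysaccharide (LPS), using RNA bound to tagged endothelial ribosomes. The comparison takes every lung library labelled 48 hr or 6 hr, with the sequencing runs of a library summed, and leaves out libraries with under 3% of reads on genes. Of 12 such libraries 10 were kept, 4 at 6 hr and 6 at 48 hr, out of 98 libraries in the whole series. RiboTagEC mice (Cdh5CreERT2/+; Rpl22HA/+) carry an HA-tagged ribosomal protein that tamoxifen switches on in cells expressing the VE-cadherin gene Cdh5, and all groups share this genotype and the tamoxifen. The mice received 10 mg/kg LPS by intraperitoneal injection and lungs were taken 6 hr or 48 hr later, while the 4 lung libraries at 0 hr come from mice given PBS in place of LPS. Ribosomes were pulled from whole lung with an antibody against the tag, so that the RNA is enriched for, but not limited to, endothelial cells (ECs). Fewer cells of a type and less RNA per cell cannot be told apart in such bulk samples. Whether the libraries of a group come from separate mice is not stated in the labels, so that p-values measure the spread between these libraries.

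LPS, a component of the wall of Gram-negative bacteria, is sensed through Toll-like receptor 4 with its partners MD-2 (Ly96) and CD14. In ECs the receptor switches on NF-kappaB target genes such as chemokines and adhesion molecules, and it induces type I interferon, which in turn switches on antiviral genes. The lung capillary bed is also a site where prostaglandins are taken up and inactivated, and where neutrophils are held back after endotoxin.

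Depth differed strongly between the libraries. Gene counts ran from 284457 to 40128330 at 6 hr and from 6710885 to 19468463 at 48 hr, and the share of reads on genes from 3.40% to 33.9% and from 9.27% to 44.4%. A set of 8 loci that resemble ribosomal RNA took 5.26% to 92.9% of the counts at 6 hr and 2.45% to 70.8% at 48 hr. The 6 hr replicate 4 stood apart, with only 20060 counts outside these loci, 13356 of the 17058 genes tested at 0, and 1 count standing for 17.6 CPM, a count scaled to the size of its library. A floor of 3 counts stands for 1.03, 2.44, 0.0707 and 52.8 CPM in 6 hr replicates 1 to 4, and these floors cover counting error only. A value of 0 in replicate 4 is therefore uninformative for genes whose level lies under its floor. Other named genes, such as S100a9 and Ifit1, had 6 hr medians of 941 and 511 CPM and still read 0 there. The source of this disagreement between replicates was not tested, and calls are also given without that library. The libraries fall into series named after 4 patterns of the file names, and 6 hr replicates 1 to 3 and 48 hr replicates 1 and 2 belong to series 2, 6 hr replicate 4 and 48 hr replicates 3 and 4 to series 1, and 48 hr replicates 6 and 7 to series 4, which holds no 6 hr library.

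The endothelial label was checked against its markers. Pecam1, a junctional adhesion molecule of ECs, read 259, 1659.6, 1098 and 598 CPM in 6 hr replicates 1 to 4 and from 695 to 2037 CPM at 48 hr, with a median of 1013. Cdh5, which encodes VE-cadherin, read 123, 343, 204 and 17.6 CPM at 6 hr and from 180.4 to 1509 CPM at 48 hr, with a median of 303. The ranges of both markers overlapped between the times, and Pecam1 was detected in every library, while Cdh5 in 6 hr replicate 4 rested on 1 count, under the floor of 3 counts. Cells other than ECs were also represented. The alveolar type 2 cell gene Sftpc was found in every library, at 123 to 5684 CPM at 6 hr and 388 to 4334 CPM at 48 hr, and the club cell gene Scgb1a1 at 17.6 to 7633 and 523 to 2438 CPM. The 13 neutrophil markers tested summed to 33.3 to 158 CPM at 0 hr, to 1099 to 2682 CPM at 6 hr without replicate 4 (17.6 CPM in that library) and to 525 to 3497 CPM at 48 hr. The 16 monocyte and macrophage markers summed to 244 to 1105, 362 to 3604 (17.6 in replicate 4) and 438 to 3498 CPM. The 34 pan-endothelial genes summed to 19787 to 32740 CPM at 0 hr and 16677 to 28394 CPM at 48 hr, but to 2886, 6673, 22630 and 3183 CPM in 6 hr replicates 1 to 4, so that only replicate 3 came near the other times.

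Few genes passed the test between 48 hr and 6 hr. Of 17058 genes, 15 were higher at 48 hr (0.0879%) and 21 lower (0.123%) by edgeR's quasi-likelihood test with Benjamini-Hochberg adjustment at 0.05, and 17.2% of all genes had an unadjusted p under the same value. By that unadjusted p 1876 genes were higher and 1064 lower, the background for the unadjusted counts of gene lists. The genes that passed held few counts: 14 of the 15 and 13 of the 21 had a mean log2 CPM under 2. Against 0 hr, 436 genes were higher (2.56%) and 388 lower (2.27%) at 6 hr, but only 73 were higher (0.428%) and 29 lower (0.17%) at 48 hr. Without 6 hr replicate 4 the counts were 19 higher (0.11%) and 45 lower (0.26%) for 48 hr against 6 hr, 412 (2.38%) and 271 (1.57%) for 6 hr against 0 hr, and 74 (0.427%) and 28 (0.162%) for 48 hr against 0 hr, of 17311 genes. The median log2 fold change of all genes between 48 hr and 6 hr was 0.40, and 0.25 without that replicate, and the values of gene lists are read against it. With only the 0, 6 and 48 hr libraries in the fit, 1 gene was higher and 0 were lower by the same test (1166 with an unadjusted p under 0.05), and limma-voom called 0 in either direction (2836 unadjusted). DESeq2 called 455 higher and 784 lower, the background for its counts in gene lists. Scaling by relative log expression (RLE) in place of TMM moved the median of all genes to 0.14 and gave 47 higher and 134 lower, and 766 and 393 for 6 hr against 0 hr.

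Genes lower at 6 hr than at 0 hr and higher again at 48 hr, here called regained, numbered 12 (0.0703% of the genes tested). They are Hpgd, Hmcn1, Rspo3, Ly96, Antxr2, Casp6, Rnd2, Zfpm1, Mctp1, Svip, Memo1 and Fam189b, and they make up 12 of the 15 genes higher at 48 hr. A gene counts as regained when 6 hr is below 0 hr and 48 hr above 6 hr, and as both contrasts share the 6 hr libraries, a low value at 6 hr enters both. At 48 hr no gene of the 12 was called different from 0 hr, with log2 fold changes from -1.50 to 1.29 and a smallest adjusted p of 0.402 in edgeR's test. For 11 of them 6 hr replicates 1, 2 and 4 held 0 counts, so that the 6 hr level is given by the most deeply sequenced library, replicate 3. The summed pan-endothelial level was also low in replicates 1, 2 and 4, and the part of this and of their depth in the regained set was not tested. All 12 had every 6 hr library below every 0 hr library (10.7% of all genes tested) and 11 had every 48 hr library above every 6 hr library (3.38%), but the genes were chosen on these libraries, and nothing is read from either count. Hpgd was named by the rule for named genes, Hmcn1 and Ly96 as the called members of gene lists, and the others because they belong to the set.

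Hpgd encodes 15-hydroxyprostaglandin dehydrogenase, the enzyme that inactivates prostaglandins taken up from the blood, and it lies at chr8:56294585-56321043 on the plus strand (mm10). Its level was 279.7, 154, 427 and 3901 CPM in 0 hr replicates 1 to 4, fell to 5.17, 4.88, 20.7 and 0 CPM at 6 hr, and ranged from 156 to 438 CPM at 48 hr with a median of 332. No 6 hr library reached any library of the other times, and 48 hr lay within the range of 0 hr. The rise from 6 hr to 48 hr was 4.42 ± 0.91 (SE) on the log2 scale with an adjusted p of 0.0346 by edgeR's quasi-likelihood test, after a fall of 5.93 from 0 hr to 6 hr (adjusted p = 0.0016). Later levels were 110.2 CPM at 72 hr and 2985 CPM at 168 hr as medians of 4 libraries. The promoter of Hpgd, 250 bases before to 50 bases after the start (chr8:56294302-56294601, plus strand, RefSeq, GRCm38.p6), is shown because this gene carries the largest regained level, with the letters TATAAA, searched on the transcribed strand, in capitals. They begin 4 bases after the RefSeq start on which the 300 bases are set, and 29 bases before the start of the gene in GENCODE, whose coordinates are given above:

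Hpgd: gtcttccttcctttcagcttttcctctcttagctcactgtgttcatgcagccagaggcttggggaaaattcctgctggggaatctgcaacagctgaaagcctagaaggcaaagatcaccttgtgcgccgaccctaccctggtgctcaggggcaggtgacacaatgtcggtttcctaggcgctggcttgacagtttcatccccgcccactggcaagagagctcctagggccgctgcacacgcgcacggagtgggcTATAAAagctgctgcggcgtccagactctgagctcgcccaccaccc

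None of the 9 regained genes with a promoter in that table held a match to the NF-kappaB consensus, which 4.51% of 32851 mouse promoters of this length hold, or to the interferon-stimulated response element (ISRE, searched as TTTC, any 2 bases and TTTC), which 3.44% hold, on either strand.

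Secreted and matrix proteins were represented by Hmcn1 and Rspo3. Hmcn1 encodes hemicentin 1, a large extracellular matrix protein, and belongs to the general capillary list. It read 16.8 to 28.8 CPM at 0 hr, 0.966 CPM in 6 hr replicate 3 with 0 in the other 3 libraries, and 0.867 to 21.3 CPM at 48 hr with a median of 5.20. The 48 hr libraries of series 2 were high (21.3 and 20.0 CPM), while replicate 3 (0.867 CPM) lay below 6 hr replicate 3, so that the times overlapped. The change was 4.62 ± 0.93 on the log2 scale (adjusted p = 0.0284). Rspo3 encodes R-spondin 3, a secreted enhancer of Wnt signalling. It read 4.28 to 11.6 CPM at 0 hr and 1.65 to 24.8 CPM at 48 hr, but only 4 counts (0.0942 CPM) were found at 6 hr, all in replicate 3, giving 6.94 ± 1.24 (adjusted p = 0.0157). Exons of the opposite strand cover 399 bases of Hmcn1 and 404 of Rspo3, and as it is not stated whether reads were counted by strand, part of the counts could belong to those neighbours.

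A pair of receptor genes followed. Ly96 encodes MD-2, the protein that binds LPS for Toll-like receptor 4. It held 13.0 to 25.8 CPM at 0 hr, 0, 0, 2.21 and 0 CPM at 6 hr, and 14.2 to 28.8 CPM at 48 hr with a median of 21.7. None of the 6 libraries at 48 hr, from all 3 series, came near the 6 hr values. The rise was 4.06 ± 0.75 on the log2 scale (adjusted p = 0.0192). Antxr2, the anthrax toxin receptor 2, which binds basement membrane proteins, read 25.7 to 68.4 CPM at 0 hr, 0, 0, 2.78 and 0 CPM at 6 hr and 12.0 to 63.2 CPM at 48 hr, a rise of 4.12 ± 0.80 (adjusted p = 0.0233).

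The remaining 7 regained genes act inside the cell, as far as their roles are known. Casp6, an effector caspase, read 9.86 to 35.0 CPM at 0 hr, 1.39 CPM in 6 hr replicate 3 alone and 3.01 to 29.9 CPM at 48 hr, with a change of 4.11 ± 0.89. Rnd2, which shares 226 exon bases with the opposite strand, had 3.68 to 12.6 CPM at 0 hr, 5 counts in all (0.118 CPM) at 6 hr and 4.10 to 10.4 CPM at 48 hr. Its change of 6.25 ± 1.06 (adjusted p = 0.0102) was kept in every fit that left out 1 library. Zfpm1, which encodes the GATA cofactor FOG-1, read 4.17 to 5.50 CPM at 0 hr, 0.824 CPM in 6 hr replicate 3 alone and 5.29 to 9.10 CPM at 48 hr. These 48 hr values sat close together, with 5 of 6 libraries between 7.61 and 9.10 CPM, and the change was 4.09 ± 0.90. For Mctp1, a calcium-binding membrane protein with C2 domains, the levels were 9.85 to 24.3, up to 2.57 and 8.30 to 27.0 CPM at 0, 6 and 48 hr, a change of 3.84 ± 0.85. For Svip, an inhibitor of protein degradation at the endoplasmic reticulum, they were 4.45 to 6.31, up to 0.141 and 0.991 to 10.7 CPM, a change of 5.83 ± 1.15.

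The other two, Memo1 and Fam189b, had 0 counts in all 4 libraries at 6 hr. Memo1 codes for a mediator of cell motility downstream of ErbB2. It read 0.901 to 16.1 CPM at 0 hr and 2.27 to 34.4 CPM at 48 hr, at least 160-fold higher at 48 hr, as the mean of the 6 libraries, than the floor of 3 counts over the 6 hr group. The bound rests in part on 48 hr replicate 4 (34.4 CPM) and is 85.3-fold without it, as the median at 48 hr was only 5.10 CPM. For Fam189b the ranges were 2.09 to 4.22 and 0.619 to 7.66 CPM, at least 46.2-fold higher. As replicate 3 gave nearly all counts of the 6 hr group, both bounds rest on it.

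All 12 calls were kept without 6 hr replicate 4. Within series 2 the median difference of the 12 genes between 48 hr and 6 hr was 5.92 on the log2 scale against 0.71 over all genes, and within series 1, where replicate 4 is the single 6 hr library, it was 6.40 against 3.80. As the genes were chosen on these libraries, their direction within a series is a description. DESeq2 called 12 of 12 and limma-voom 0. Leaving out 1 library at a time, 14 of 14 fits kept the call of Rnd2, 13 those of Ly96 (lost without 48 hr replicate 1) and Rspo3 (lost without 48 hr replicate 2), 11 those of Svip and Fam189b, 10 those of Hpgd, Hmcn1 and Antxr2, 9 that of Memo1, 6 that of Casp6 and 3 those of Mctp1 and Zfpm1. Those of Svip, Fam189b, Hpgd, Hmcn1, Antxr2, Memo1, Casp6, Mctp1 and Zfpm1 were all lost without 6 hr replicate 1, 48 hr replicate 1 and 48 hr replicate 2, with further losses without 6 hr replicate 2 (Hpgd, Hmcn1, Antxr2, Memo1, Casp6), 48 hr replicate 4 (Memo1, Casp6), 48 hr replicate 6, 0 hr replicate 1 or 0 hr replicate 2 (Casp6). Mctp1 and Zfpm1 kept their calls only without 0 hr replicate 4, 6 hr replicate 3 or 6 hr replicate 4. Without the deepest 6 hr library, replicate 3, the number of regained genes went from 12 to 2847. Without 6 hr replicate 4 it was 15 of 17311 genes (0.0867%).

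**Figure D1:**
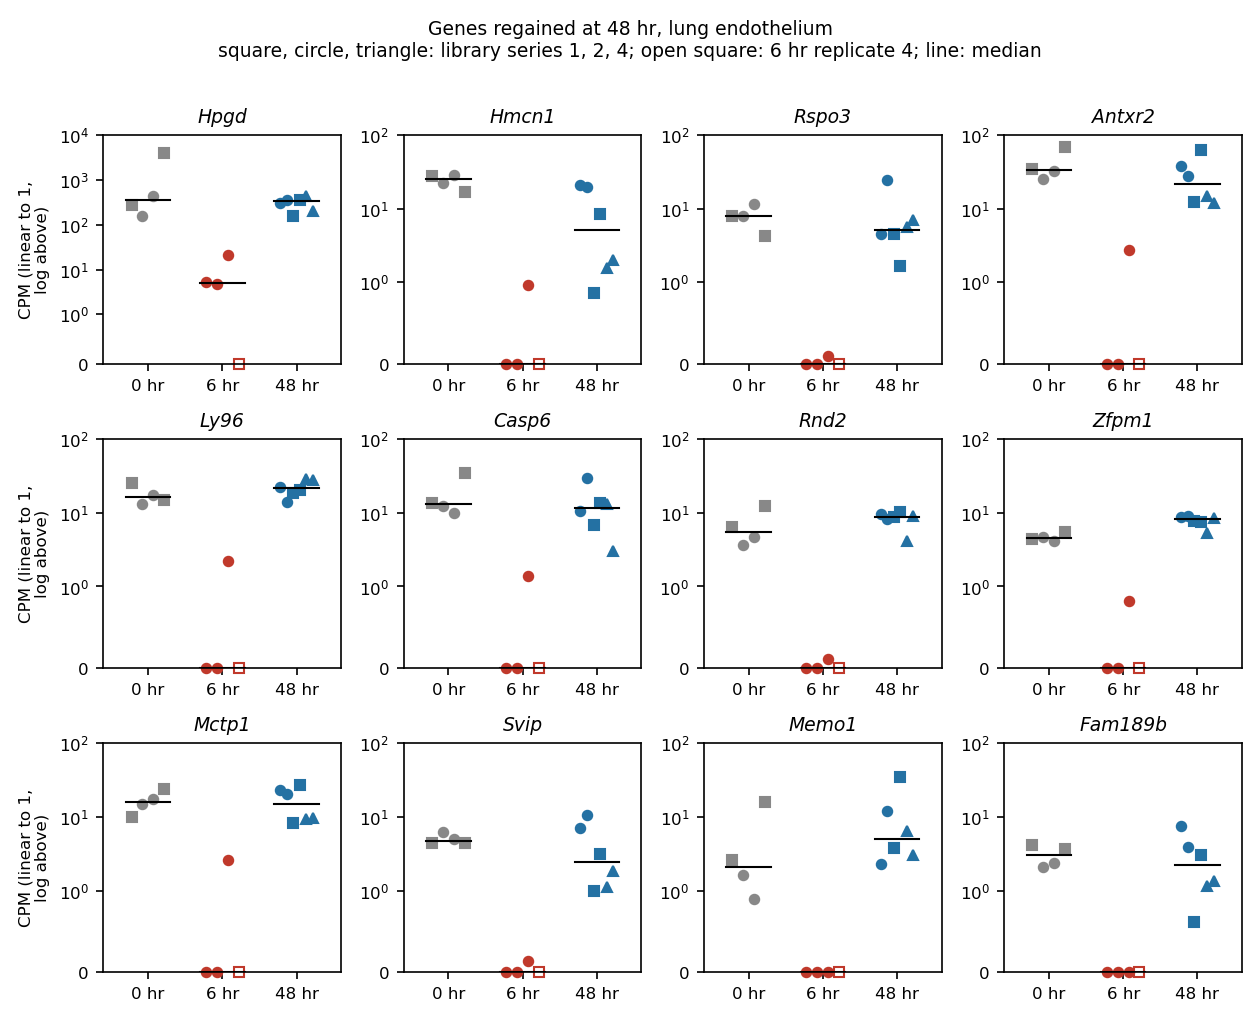
Levels of the 12 regained genes in CPM (linear to 1, log above) for each lung library at 0, 6 and 48 hr, with squares, circles and triangles for library series 1, 2 and 4, an open square for 6 hr replicate 4 and a line at the median. At 6 hr, 3 or 4 of the 4 points lie at 0 for every gene but Hpgd, and the range of the 48 hr points overlaps that of the 0 hr points for all 12.

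Other genes that mark the lung endothelium mostly went the same way without passing the test. Of 20 lung endothelial genes 9 were called lower at 6 hr than at 0 hr (2.27% of all genes were), and 2 were called lower at 48 hr (0.17% of all genes). Between 48 hr and 6 hr only Hpgd passed, and the median log2 fold change was 1.13 against 0.40 over all genes. At an unadjusted p under 0.05 in edgeR's test 9 of 20 were higher and 1 lower, where 1876 and 1064 of 17058 genes were. Tspan8, a tetraspanin of lung ECs, read 66.5 to 181 CPM at 0 hr, 0, 0, 18.5 and 17.6 CPM at 6 hr and 19.0 to 83.0 CPM at 48 hr, and the change of 2.61 ± 0.85 did not pass (adjusted p = 0.128). Foxf1, the lung endothelial transcription factor, read 114 to 604 CPM at 0 hr, 7.92, 20.3, 101 and 17.6 CPM at 6 hr and 100.1 to 283 CPM at 48 hr, with 1.41 ± 0.66 (adjusted p = 0.271). Car4, a carbonic anhydrase of the aerocyte, the capillary cell of gas exchange, differed from both. Its values of 280.4 to 671 CPM at 0 hr compare with 35.2 to 292 CPM at 6 hr and 102 to 208 CPM at 48 hr, and neither time was called against 0 hr (adjusted p = 0.177 and 0.152).

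The 12 general capillary genes had the highest median of the 31 pathway lists, 1.98 on the log2 scale, with 11 of 12 above the median of all genes, 8 higher at an unadjusted p under 0.05 and 1, Hmcn1, past the test. DESeq2 called 4. Their summed level was 2341 to 6643 CPM at 0 hr, 654, 1980.2, 4845 and 563 CPM in 6 hr replicates 1 to 4 and 2521 to 6219 CPM at 48 hr. The 48 hr range lay within that of 0 hr, and 6 hr replicate 3 lay within both. Of 34 pan-endothelial genes 6 were lower at 6 hr than at 0 hr (2.27% of all genes were), or 3 without 6 hr replicate 4 (1.57%), and 0 differed at 48 hr from 0 hr or from 6 hr by edgeR's test, although 29 were above the median of all genes, 10 were higher than 6 hr at an unadjusted p under 0.05 and DESeq2 called 5. Emcn, which encodes the surface mucin endomucin, came closest to the threshold of 0.05 among the endothelial markers shown, at 14.5, 24.4, 71.7 and 0 CPM at 6 hr and 139 to 376 CPM at 48 hr (2.66 ± 0.62, adjusted p = 0.0596). Cldn5, the claudin of endothelial tight junctions, read 428, 282, 5691 and 123 CPM at 6 hr and 1681 to 9874 CPM at 48 hr, and 6 hr replicate 3 overlapped the later libraries (1.78 ± 0.98, adjusted p = 0.342).

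Genes still induced, called above 0 hr at both 6 hr and 48 hr, numbered 56 (0.328% of the genes tested), and both contrasts share the 0 hr libraries. Without 6 hr replicate 4 there were 59 (0.341%), of which 51 were the same genes. None of the 56 was called higher or lower at 48 hr than at 6 hr by edgeR's test, while 6 were higher and 10 lower at an unadjusted p under 0.05, DESeq2 called 2 and 9, and limma-voom 0. The fold against 0 hr was smaller at 48 hr than at 6 hr for 30 of the 56. Their median log2 fold change against 0 hr was 4.42 at 48 hr, and unchanged at 4.42 with the 3 genes that had 0 counts at 0 hr set at their lower bound. Every 48 hr library lay above every 0 hr library for 45 of them (1.48% of all genes tested), which the choice of the genes on these libraries favours. At 6 hr only 7 had every library above every 0 hr library (0.745% of all genes), and 39 did once replicate 4 was set aside, as 44 of the 56 held 0 counts there. Within series 1 and within series 2 their median difference between 48 hr and 0 hr was 3.75 and 4.02 on the log2 scale against 0 and -0.29 over all genes, again as a description. Of the 56 genes 22 belong to any of the lists. The acute phase list held the most, with 8 of 18 genes, followed by the neutrophil markers, with 7 of 13.

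Lcn2, the gene of lipocalin 2, which withholds iron from bacteria by binding their siderophores, was the single still induced gene named by the rule. It read 39.2, 55.7, 5.80 and 11.7 CPM at 0 hr, 1442, 1109.7, 546 and 87.9 CPM at 6 hr and 167 to 1667 CPM at 48 hr with a median of 1225. Every library at 6 hr and 48 hr lay above every library at 0 hr, 6 hr replicate 4 included. At 48 hr the 2 libraries of series 2 were low (233 and 167 CPM) and the other 4 lay between 1057 and 1667 CPM. Against 0 hr the difference was 5.04 ± 0.91 at 6 hr (adjusted p = 0.00226) and 4.42 ± 0.88 at 48 hr (adjusted p = 0.0107), and between 48 hr and 6 hr it was -0.62 ± 0.87 (adjusted p = 0.745). The call at 48 hr was lost without 0 hr replicate 3 or 0 hr replicate 4. The promoters of Lcn2 (chr2:32387690-32387989, minus strand) and Saa3 (chr7:46715627-46715926, minus strand), from the same RefSeq table, are set side by side as the acute phase genes with the highest CPM at 48 hr, with an ISRE match in capitals in Saa3 and no match to any searched motif in Lcn2:

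Lcn2: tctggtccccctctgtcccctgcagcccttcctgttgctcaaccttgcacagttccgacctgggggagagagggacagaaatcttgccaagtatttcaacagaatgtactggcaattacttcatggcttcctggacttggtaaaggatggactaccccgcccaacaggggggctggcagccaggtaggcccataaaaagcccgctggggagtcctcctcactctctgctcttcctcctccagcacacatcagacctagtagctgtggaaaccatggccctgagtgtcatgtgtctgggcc

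Saa3: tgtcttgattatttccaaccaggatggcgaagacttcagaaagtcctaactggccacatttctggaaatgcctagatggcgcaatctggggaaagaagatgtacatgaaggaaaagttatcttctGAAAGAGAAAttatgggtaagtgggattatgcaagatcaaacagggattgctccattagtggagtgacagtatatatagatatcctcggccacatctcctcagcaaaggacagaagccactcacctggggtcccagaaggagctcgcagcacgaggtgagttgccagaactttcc

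Over the 48 still induced genes with a promoter in the table, 5 held an NF-kappaB match and 3 an ISRE match.

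Saa3, serum amyloid A3, is an acute phase protein that is also made outside the liver. It rose from 2.06 to 78.5 CPM at 0 hr to 3939, 2657, 14928 and 70.3 CPM at 6 hr and 793 to 6227 CPM at 48 hr, with a difference of 6.62 ± 1.41 between 48 hr and 0 hr (adjusted p = 0.0182). The call was lost without 0 hr replicates 2, 3 or 4 or 48 hr replicate 3, each left out alone. The protease inhibitor genes followed the same course at lower levels. Serpina3n read 1.21 to 5.11 CPM at 0 hr, 98.8, 30.9, 16.2 and 0 CPM at 6 hr and 18.2 to 34.9 CPM at 48 hr (3.08 ± 0.67 against 0 hr, adjusted p = 0.0211), and Serpina3f 2.33 to 6.56, up to 627 and 16.1 to 258 CPM (3.34 ± 0.77, adjusted p = 0.0333). The call of Serpina3n was lost without 0 hr replicates 1, 2 or 3, and that of Serpina3f without any single 0 hr replicate or without 48 hr replicates 1, 3, 6 or 7. Serpina3i, Saa1 and Saa2 were the other still induced members of these families, whose near-identical copies make the assignment of reads uncertain. Il1r2, the decoy receptor that binds interleukin 1 without signalling, went from at most 1.34 CPM at 0 hr to 83.0, 137, 195 and 0 CPM at 6 hr and 4.40 to 76.2 CPM at 48 hr with a median of 63.7. Its difference at 48 hr was 6.20 ± 0.96 (adjusted p = 0.000632), and the call was kept in 14 of 14 fits that left out 1 library.

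Other still induced genes encode receptors, a phospholipase and a matrix proteoglycan, and the cells their RNA came from were not tested. Ackr1, the chemokine-binding receptor of venular ECs, read 0.154 to 1.39 CPM at 0 hr, 7.92, 0, 19.0 and 17.6 CPM at 6 hr and 2.64 to 46.6 CPM at 48 hr with a median of 28.0 (4.52 ± 0.80, adjusted p = 0.00303, kept in 14 of 14 fits). Procr, the endothelial protein C receptor, an anticoagulant protein, read 2.77 to 14.1 CPM at 0 hr, 36.8, 16.3, 23.6 and 0 CPM at 6 hr and 12.8 to 188 CPM at 48 hr (2.83 ± 0.65, adjusted p = 0.0333). The call of Procr was kept in 7 of 14 fits and was lost without any single 0 hr replicate or without 48 hr replicates 3, 4 or 6. Pla1a, a phospholipase, was at most 0.703 CPM at 0 hr and had a median of 43.9 CPM at 48 hr, with 0 in 48 hr replicate 2 and 106 CPM in replicate 6 (6.88 ± 1.13, adjusted p = 0.00139). Versican (Vcan), a matrix proteoglycan, read 0.497 to 5.39 CPM at 0 hr, 25.3 to 87.9 CPM at 6 hr and 5.58 to 23.4 CPM at 48 hr (3.23 ± 0.75, adjusted p = 0.0335). It was detected in 6 hr replicate 4 with 5 counts, and its call at 48 hr was lost without 0 hr replicates 2, 3 or 4 or 48 hr replicates 1, 3 or 6.

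Genes of LPS signalling itself were represented by Cd14, Nfkbiz and Irf7. Cd14, the co-receptor that hands LPS to MD-2, read 0.923 to 5.33 CPM at 0 hr, 274, 70.0, 12.1 and 0 CPM at 6 hr and 16.7 to 59.2 CPM at 48 hr (3.38 ± 0.75 against 0 hr, adjusted p = 0.0235). Nfkbiz, which encodes an atypical nuclear inhibitor protein that steers NF-kappaB, read 3.47 to 7.03, up to 100.1 and 17.0 to 64.3 CPM (2.99 ± 0.68, adjusted p = 0.0307). Irf7, the master transcription factor of the interferon response, was the single still induced gene among 32 interferon-stimulated genes. It read 3.28 to 19.7 CPM at 0 hr, 212, 90.3, 162 and 52.8 CPM at 6 hr and 15.5 to 176 CPM at 48 hr, where 3 libraries held 154 to 176 CPM and 3 held 15.5 to 26.4 CPM, so that 48 hr overlapped 0 hr (2.76 ± 0.67, adjusted p = 0.0451). The call of Irf7 was kept in 7 of 14 fits, that of Nfkbiz in 8 and that of Cd14 in 9. All 3 calls ended without 0 hr replicate 2, 0 hr replicate 3, 48 hr replicate 1 or 48 hr replicate 3, those of Cd14 and Irf7 without 0 hr replicate 1, those of Nfkbiz and Irf7 without 48 hr replicate 6, that of Nfkbiz without 0 hr replicate 4 and that of Irf7 without 48 hr replicate 7.

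Of the 56 still induced genes, 7 belong to the neutrophil list. S100a8 and S100a9, the calprotectin subunits, read 4.33 to 43.2 and 10.4 to 100.3 CPM at 0 hr. S100a8 read 693, 286, 942 and 0 CPM at 6 hr and 144 to 1331 CPM at 48 hr with a median of 181 (4.42 ± 0.88 against 0 hr, adjusted p = 0.0105), and S100a9 read 1241, 641, 1461 and 0 CPM and 255 to 1582 CPM (3.91 ± 0.86, adjusted p = 0.0222). Ngp, the neutrophilic granule protein, rose from 0.461 to 2.58 CPM at 0 hr to 16.5 to 95.0 CPM at 48 hr (5.62 ± 0.86, adjusted p = 0.000522), and Retnlg, a resistin-like protein of neutrophils, from 2.17 to 9.88 CPM to 35.3 to 207 CPM (4.60 ± 0.67, adjusted p = 0.00027). In all 4 genes every 48 hr library lay above every 0 hr library, and the highest 48 hr library was replicate 1. The calls of Ngp and Retnlg at 48 hr were kept in 14 of 14 fits, that of S100a8 was lost without 0 hr replicates 2 or 3, and that of S100a9 without 0 hr replicates 2, 3 or 4 or 48 hr replicates 1 or 3. The still induced genes of the cell type lists were S100a8, S100a9, Ngp, Retnlg, Mmp8, Mmp9 and Stfa2l1 of the neutrophil list and Itgam of the monocyte and macrophage list, 8 of 56. Other members are also known from myeloid cells, such as the formyl peptide receptors Fpr1 and Fpr2 and the receptors Trem1, Trem3 and Clec4e. The neutrophil sum given above includes these 7 genes. The 6 other neutrophil markers tested (Ly6g, Mpo, Camp, Ltf, Cxcr2 and Csf3r) summed to 8.04 to 19.3 CPM at 0 hr, to 202, 70.0, 148 and 0 CPM in 6 hr replicates 1 to 4 and to 26.0 to 142 CPM at 48 hr, with replicate 1 highest. They were thus also above their 0 hr range in every 6 hr and 48 hr library but 6 hr replicate 4, and the part of neutrophils in the still induced set was not tested.

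The stefin A genes Stfa2, Stfa1 and Stfa2l1, inhibitors of cysteine proteases, read higher in every 48 hr library than in any 0 hr library. Stfa2 had 0 counts in all 4 libraries at 0 hr and all 4 at 6 hr, but 70.6, 42.9, 2.85, 12.3, 0.555 and 1.14 CPM in 48 hr replicates 1, 2, 3, 4, 6 and 7, at least 338-fold higher, as the mean of the 6 libraries, than the floor of 3 counts over the 6 hr group. Without 48 hr replicate 1 the bound is 186-fold, and 4 of the 6 libraries lay between 0.555 and 12.3 CPM. With 0 counts at 0, 6 and 168 hr, Stfa2 passed the expression filter only through the other times. It was called in 28 of 29 alternatives, but these reuse the same libraries, and the count is a description. Stfa1 had 0 counts at 0 hr, 1.60 CPM in 6 hr replicate 3 alone and 1.61 to 38.0 CPM at 48 hr, and Stfa2l1 read at most 0.646 CPM at 0 hr, 1.38, 0, 10.5 and 0 CPM at 6 hr and 6.14 to 50.5 CPM at 48 hr. In all 3 genes 48 hr replicates 1 and 2 of series 2 were highest, and the same libraries were highest in summed neutrophil markers (3497 and 1870.3 CPM), although over the 6 markers outside the still induced set replicates 1 and 3 were highest (142 and 77.7 CPM, with 71.3 CPM in replicate 2). BC100530, of the same gene family, also rose, while Blm, a DNA helicase, held 1 count at 6 hr. The copies of this family are near-identical, and the share of each is uncertain.

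**Figure D2:**
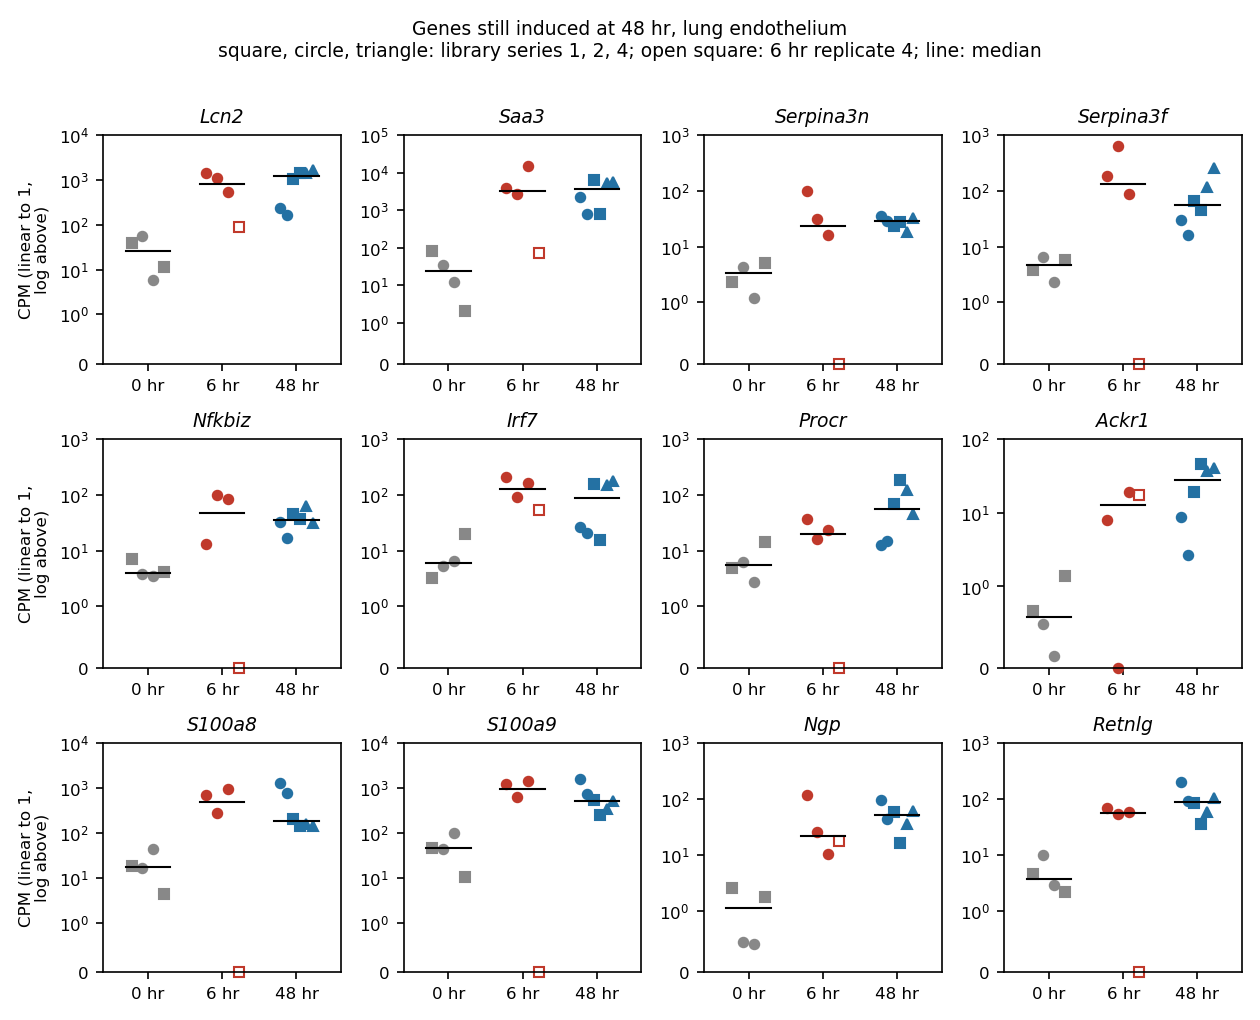
Levels of 12 still induced genes in CPM (linear to 1, log above) for each lung library at 0, 6 and 48 hr, with squares, circles and triangles for library series 1, 2 and 4, an open square for 6 hr replicate 4 and a line at the median. The 48 hr points lie above the 0 hr points for every gene shown but Irf7 and Procr, where the lowest 48 hr library lies below the highest 0 hr library, and 6 hr replicate 4 lies at 0 for 7 of the genes.

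Of the 21 genes called lower at 48 hr than at 6 hr, 2 (Ifit2 and Cmpk2) belong to the interferon-stimulated list and 1 (Cxcl10) to the chemokine list. At 6 hr 16 of the 21 were called higher than at 0 hr (2.56% of all genes were), and as both contrasts share the 6 hr libraries, a high value at 6 hr enters both and nothing is read from this count. Series 2, which holds 3 of the 4 libraries at 6 hr, gave a median difference of -3.95 on the log2 scale for the 21 against 0.71 over all genes. In series 1, whose only 6 hr library is replicate 4, 12 of the 21 were higher and 7 lower at 48 hr. Every 48 hr library lay below every 6 hr library for 0.106% of all genes tested, and for none of the genes shown here, since replicate 4 was at or near 0. The genes shown were chosen after their values were seen.

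Cxcl10, an interferon-induced chemokine that attracts T cells and NK cells, lies at chr5:92346638-92348889 on the minus strand. It read 0.469 to 4.11 CPM at 0 hr, 823, 283, 54.1 and 0 CPM at 6 hr and 5.02 to 40.3 CPM at 48 hr with a median of 9.00. Apart from replicate 4 all 6 hr libraries lay above all 48 hr libraries, and the 48 hr libraries lay above all 0 hr libraries. The fall was -5.04 ± 0.96 on the log2 scale (adjusted p = 0.0233), and 2.07 ± 0.85 remained against 0 hr (adjusted p = 0.376). Exons of the opposite strand share 133 bases with it. Ubd, the ubiquitin-like modifier FAT10, read 168, 45.6, 363 and 0 CPM at 6 hr and 2.50 to 30.2 CPM at 48 hr (-4.98 ± 1.05, adjusted p = 0.0367). Ifit2, an antiviral RNA-binding protein, read 233, 151, 7.21 and 0 CPM at 6 hr and 1.99 to 18.6 CPM at 48 hr, so that 6 hr replicate 3 lay among the 48 hr libraries (-4.37 ± 0.86, adjusted p = 0.0233).

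Cmpk2, a mitochondrial nucleotide kinase induced by interferon, read 219, 162, 90.4 and 17.6 CPM at 6 hr and 15.3 to 27.9 CPM at 48 hr (-2.67 ± 0.60, adjusted p = 0.0493). Trim12c, of the tripartite motif family, read 274, 737, 364 and 0 CPM and 15.2 to 61.3 CPM (-2.89 ± 0.60, adjusted p = 0.0367). At 0 hr these genes held 16.8 to 78.0 and 37.3 to 76.5 CPM, levels near or above those at 48 hr. Of the 14 fits without 1 library, 11 kept the calls of Cxcl10 and Ifit2, 10 that of Trim12c, 8 that of Ubd and 3 that of Cmpk2. All 5 calls were lost without 48 hr replicate 1 and without 48 hr replicate 2, those of Cxcl10, Ifit2 and Ubd also without 6 hr replicate 1, that of Trim12c without 0 hr replicate 3 or 6 hr replicate 2, and that of Ubd without 0 hr replicates 1 or 3 or 48 hr replicate 4. Cmpk2 passed only without 0 hr replicate 4, 6 hr replicate 3 or 6 hr replicate 4. Sec14l3, a lipid-binding protein with a SEC14 domain, and Ftsj1, a tRNA methyltransferase, were the called genes with over 25 CPM in each 6 hr library. Sec14l3 read 68.2, 2664, 34.4 and 844 CPM at 6 hr and 5.95 to 214 CPM at 48 hr.

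More interferon-stimulated genes passed once 6 hr replicate 4 was left out. Over 32 such genes the median log2 fold change between 48 hr and 6 hr was -2.50, and none lay above the median of all genes. Called lower were 2, Ifit2 and Cmpk2 (0.123% of all genes were). Without the replicate 14 of the 32 were called lower (0.26% of all genes were). With it, 26 were lower at an unadjusted p under 0.05, and DESeq2 called 26 lower, where 1064 and 784 of 17058 genes were. Their summed level was 1897 to 2746 CPM at 0 hr, 4635, 3680.5, 11801 and 404 CPM at 6 hr and 888 to 2509 CPM at 48 hr, so that no 48 hr library exceeded the highest 0 hr library. Ifit1 read 538, 484, 1128 and 0 CPM at 6 hr and 7.05 to 134 CPM at 48 hr, with -3.56 ± 0.90 (adjusted p = 0.0682 in the main fit, and 9.18e-07 to 0.372 over 29 alternatives). Isg15, the interferon-induced ubiquitin-like protein, read 222, 102, 359 and 0 CPM and 4.99 to 131 CPM, with -3.31 ± 0.88 (adjusted p = 0.0729, and 3.25e-05 to 0.449). Oasl2, of the oligoadenylate synthetase family, read 309.6, 382, 476 and 0 CPM and 26.6 to 78.2 CPM (-2.47 ± 0.61, adjusted p = 0.0646). The GTPase gene Iigp1 read 291, 386, 209 and 35.2 CPM and 13.8 to 133 CPM (-2.58 ± 0.66, adjusted p = 0.0688). Among 10 guanylate-binding genes, GTPases induced by interferon gamma, the median was -2.19 and 0 passed by edgeR's test (8 lower at an unadjusted p under 0.05, 6 by DESeq2). Gbp4 and Gbp5 passed without replicate 4, with 172, 257, 316 and 0 CPM and 116, 254, 119 and 0 CPM at 6 hr against 22.1 to 63.4 and 6.82 to 75.5 CPM at 48 hr.

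The promoters of Cxcl10 (chr5:92348840-92349139, minus strand), Isg15 (chr4:156200769-156201068, minus strand) and Ifit1 (chr19:34640639-34640938, plus strand) are printed as those of the called chemokine gene and of 2 interferon-stimulated genes that passed once 6 hr replicate 4 was left out, from the same table and of the same 300 bases. Capitals mark matches on either strand to the ISRE, the NF-kappaB consensus or the AP-1 motif (TGANTCA, held by 7.81% of all promoters):

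Cxcl10: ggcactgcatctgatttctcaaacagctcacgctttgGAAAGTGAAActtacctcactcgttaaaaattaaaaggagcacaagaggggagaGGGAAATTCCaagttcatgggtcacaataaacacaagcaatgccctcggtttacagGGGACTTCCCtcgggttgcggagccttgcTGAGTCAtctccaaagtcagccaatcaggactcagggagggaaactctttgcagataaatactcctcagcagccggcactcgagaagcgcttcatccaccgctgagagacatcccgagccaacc

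Isg15: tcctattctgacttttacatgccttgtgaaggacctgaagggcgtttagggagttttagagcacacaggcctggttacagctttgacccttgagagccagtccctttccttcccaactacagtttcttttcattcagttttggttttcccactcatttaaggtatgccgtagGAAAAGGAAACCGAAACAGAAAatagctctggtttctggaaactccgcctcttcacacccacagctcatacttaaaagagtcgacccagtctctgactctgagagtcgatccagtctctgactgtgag

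Ifit1: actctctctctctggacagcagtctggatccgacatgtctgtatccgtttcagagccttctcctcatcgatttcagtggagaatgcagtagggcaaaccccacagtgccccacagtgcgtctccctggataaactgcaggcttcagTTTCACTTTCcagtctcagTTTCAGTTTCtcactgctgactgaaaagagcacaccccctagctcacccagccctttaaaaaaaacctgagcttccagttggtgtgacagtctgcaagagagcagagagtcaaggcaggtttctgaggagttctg

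Cxcl10 holds 1 ISRE, 2 NF-kappaB matches and 1 AP-1 match, Isg15 holds 3 overlapping ISRE matches and Ifit1 holds 2. An ISRE was found in 13 of 23 interferon-stimulated genes with a promoter in the table and in 4 of 4 guanylate-binding genes, against 3.44% of all promoters. A match describes letters and not a bound site.

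**Figure D3:**
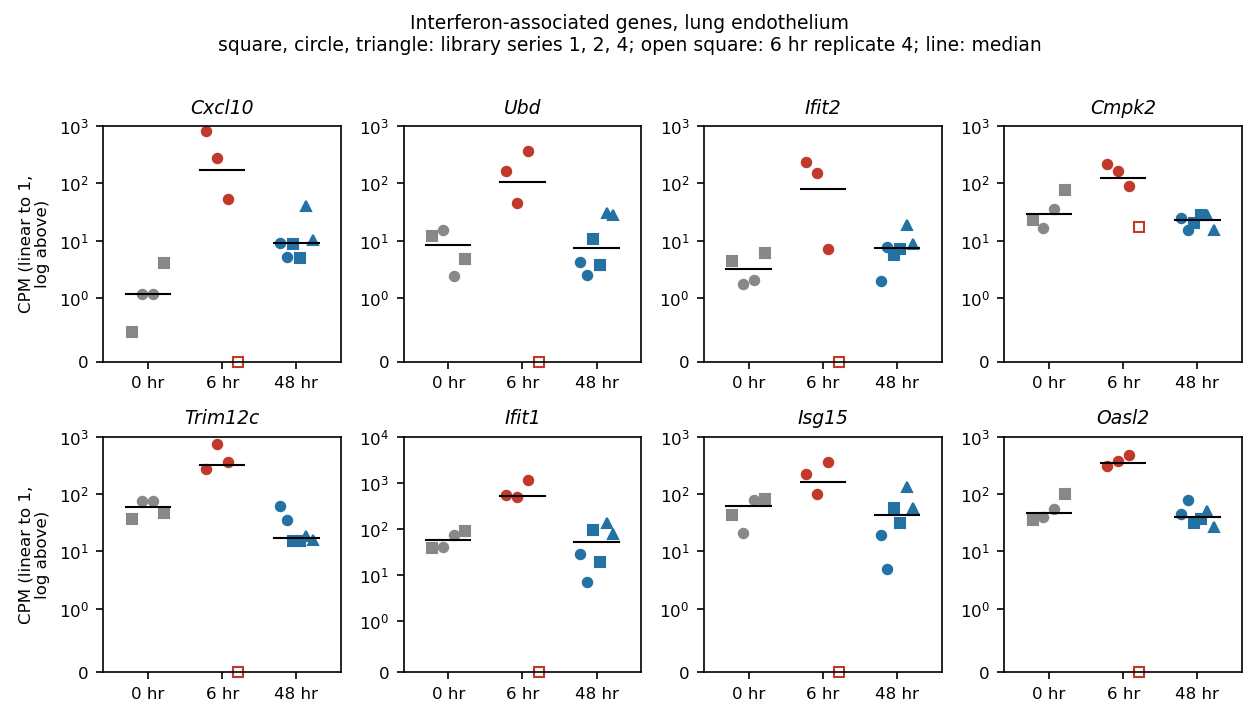
Levels of 8 interferon-associated genes in CPM (linear to 1, log above) for each lung library at 0, 6 and 48 hr, with squares, circles and triangles for library series 1, 2 and 4, an open square for 6 hr replicate 4 and a line at the median. In 6 of the genes the circles at 6 hr lie above all 48 hr points, for Ifit2 replicate 3 at 7.21 CPM and for Isg15 replicate 2 at 102 CPM do not, and replicate 4 lies at 0 for all but Cmpk2.

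Across the 31 pathway lists, 520 genes were tested and 3 members passed in each direction, where 0.0879% of all genes were higher and 0.123% lower. Those higher were Hpgd (lung endothelial and vascular tone), Hmcn1 (general capillary) and Ly96 (cytokines and their receptors), and those lower Cxcl10 (chemokines), Ifit2 and Cmpk2. Next to the interferon-stimulated and guanylate-binding lists, inflammatory lists had low medians, with -2.14 over 25 chemokines (13 lower at an unadjusted p under 0.05, DESeq2 11), -1.32 over 18 acute phase genes (8 and 6), -1.20 over 25 cytokines and receptors and -0.65 over 18 NF-kappaB feedback genes (-1.10 without 6 hr replicate 4). The 4 genes tested of the metallothionein list are the zinc-binding Mt1 and Mt2 and the zinc transporters Slc39a14 and Slc39a8. Their median lay as low at -0.62, and at -1.77 without that replicate, while Mt1 itself was at 0.11 ± 1.35 with it. In the NF-kappaB feedback list 6 of 18 genes were called higher at 6 hr than at 0 hr (2.56% of all genes were). At 48 hr 1 of them, Nfkbiz, was called higher than at 0 hr (0.428% of all genes were). Nfkbia, the inhibitor IkB alpha, was the most abundant member, at 4638 to 28171 CPM at 6 hr and 545 to 6935 CPM at 48 hr (-1.39 ± 0.70, adjusted p = 0.302). Of the acute phase list 15 of 18 were called higher than 0 hr at 6 hr and 8 at 48 hr, beside the same 2.56% and 0.428% of all genes.

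Some vascular lists had medians above the 0.40 of all genes. The median was 1.12 over 18 vascular tone genes (5 higher and 3 lower at an unadjusted p under 0.05), 1.11 over 12 artery and vein genes, 0.76 over 20 genes of caveolae and fatty acid uptake and 0.72 over 21 Notch and BMP genes, of which 7 were lower at 6 hr (2.27% of all genes were) and 2 at 48 hr (0.17%) than at 0 hr. Without 6 hr replicate 4 the Notch and BMP median was 0.35 against 0.25 over all genes, and 4 were lower at 6 hr (1.57%). Junction, coagulation and glycocalyx genes did not lie above all genes (0.39, 0.39 and 0.21). The most abundant members did not pass the test. Acvrl1, a BMP receptor of ECs, read 26.8 to 760.3 CPM at 6 hr and 307 to 989.6 CPM at 48 hr (1.23 ± 0.78, adjusted p = 0.415), and Cavin1, a coat protein of caveolae, 319 to 3346 and 946 to 19564 CPM (2.46 ± 0.77, adjusted p = 0.118). Ephb4, a receptor of venous ECs, read 0 to 525 and 205 to 576 CPM (1.31 ± 0.80, adjusted p = 0.397). Over 12 aerocyte genes the median was 0.55, and 0.08 without 6 hr replicate 4, under that of all genes, with 6 genes above the median of all genes. Emp2, its most abundant member, was at 5461 to 64159.9 CPM at 6 hr and 111 to 23092 CPM at 48 hr (-1.75 ± 0.78, adjusted p = 0.247).

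The remaining lists held no member called between 48 hr and 6 hr. Cell cycle genes had a median of 0.68 over 39 genes with 0 called by edgeR's test (6 higher at an unadjusted p under 0.05, where 1876 of 17058 genes were, DESeq2 1). The most abundant, the replication helicase gene Mcm3, read 0 to 29.1 CPM at 6 hr and 13.7 to 160.6 CPM at 48 hr (1.15 ± 0.70, adjusted p = 0.397). MHC class I genes had a median of 0.07, led by H2-K1 (1.06 ± 0.73), and MHC class II genes of -0.06, led by Cd74 (-0.22 ± 0.78), with 0 called by edgeR's test in either list (1 and 2 lower at an unadjusted p under 0.05, DESeq2 1 and 1). Junctions, coagulation, glycocalyx and metallothioneins, given above, and the complement (0.47), cholesterol (0.50), angiopoietin and VEGF (0.43), unfolded protein response (0.18), basement membrane (0.17), cell cycle brakes (0.09), leukocyte adhesion (-0.14), immediate early (-0.25), glucocorticoid (-0.39) and circadian (0.86) lists ranged from -0.62 to 0.86, and from -1.77 to 0.58 without 6 hr replicate 4. With an unadjusted p under 0.05, these 14 lists held between 0 and 4 members in either direction, and between 0 and 3 by DESeq2, beside 0 by edgeR's adjusted test. In the cell type lists no member passed between 48 hr and 6 hr. The median was 0.40 over the 13 neutrophil markers tested and 1.22 over 16 monocyte and macrophage markers, or 1.02 with the member at 0 counts in all 6 hr libraries at its bound. The 5 alveolar type 1 markers tested stood at 1.31, all above the median of all genes, after -1.79 at 6 hr against 0 hr (-0.42 over all genes). The other lists gave 1.01 (mesothelial), 0.96 (erythroid), 0.86 (platelet), 0.56 (T and NK), 0.44 (fibroblast), 0.26 (smooth muscle and pericyte), 0.01 (alveolar type 2), -0.10 (B cell), -0.46 (airway) and -1.64 (cardiomyocyte).

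**Figure D4:**
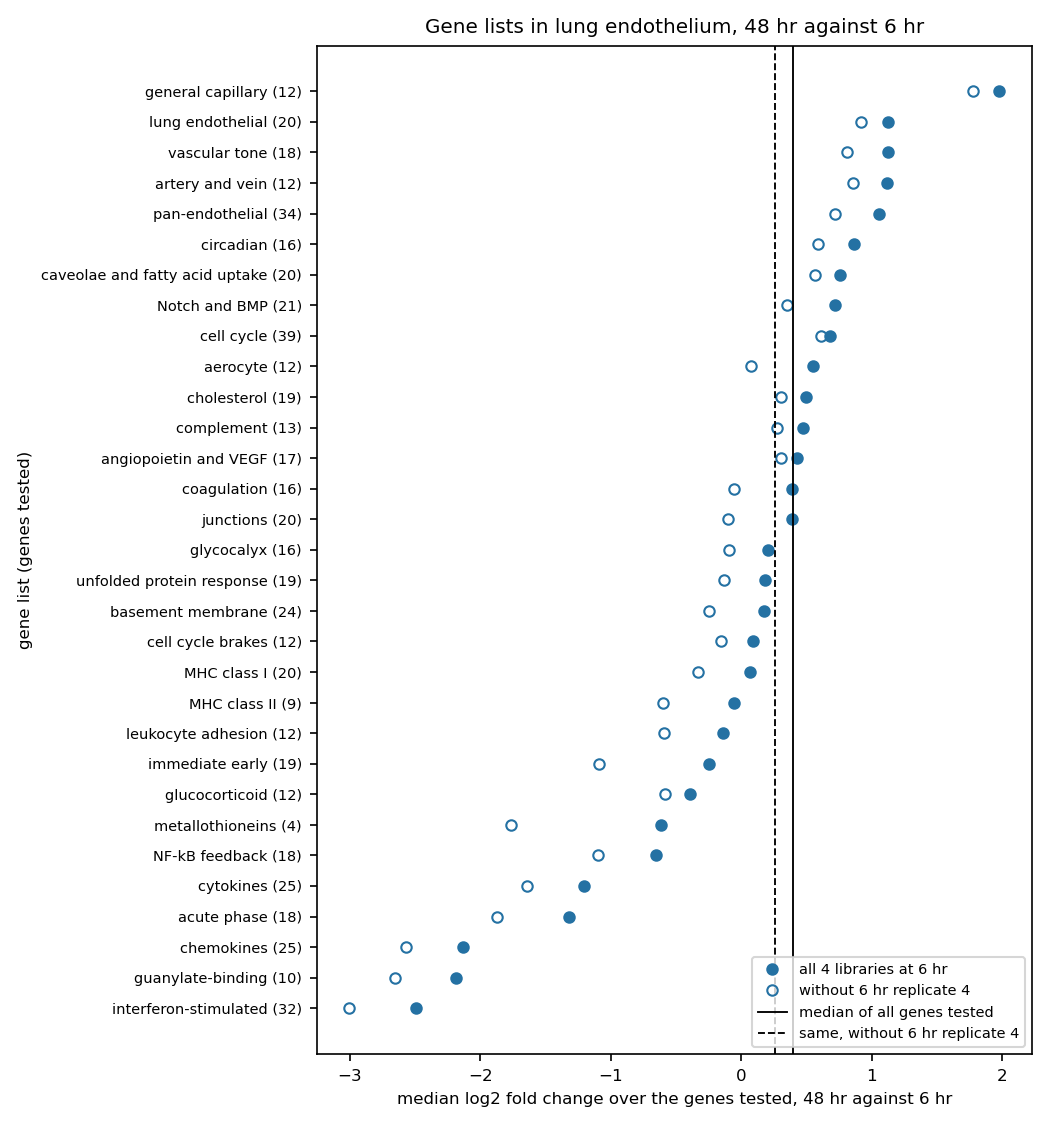
Median log2 fold change between 48 hr and 6 hr over the tested genes of each of the 31 pathway lists, with all 4 libraries at 6 hr (filled) and without 6 hr replicate 4 (open), and the medians of all genes as a solid and a dashed line. The interferon-stimulated, guanylate-binding and chemokine lists lie lowest, at -2.50, -2.19 and -2.14, and the general capillary list highest, at 1.98.

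The same interval in brain and heart ECs was set beside the lung in a joint fit of 80 libraries and 22007 genes, and the labels do not say whether tissues came from the same mice. This fit called 3318 genes higher (15.1%) and 1979 lower (8.99%) at 48 hr than at 6 hr in lung, 164 (0.745%) and 131 (0.595%) in brain and 1081 (4.91%) and 1554 (7.06%) in heart. In this fit the spread is estimated over 3 tissues, while the fit of lung alone called 15 higher (0.0879%) and 21 lower (0.123%). Lung calls of the joint fit, and its differences between tissues, are thus less strict than the main calls. The part of the shared spread in this was not tested. The lung change differed from the mean of brain and heart for 2771 genes upward (12.6%) and 1408 downward (6.4%), 19% in all. All 12 regained genes are among the former, but they were chosen on the lung contrast, and the count is not read further. Of the 12, none was called in brain (edgeR's adjusted p from 0.303 to 0.998, with an estimated log2 fold change of -1.18 for Hpgd) and 4 were called higher in heart, Rspo3 (2.05), Rnd2 (1.84), Zfpm1 (1.61) and Casp6 (1.51).

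Interferon-stimulated genes were also lower at 48 hr in the other two tissues. In this joint fit 27 of 32 were called lower in lung (8.99% of all genes were), against 2 in the fit of lung alone. In brain 22 of 32 (0.595% of all genes) and in heart 31 of 32 (7.06%) were called lower at 48 hr than at 6 hr, with medians of -2.17 and -3.07. The lung change differed from the mean of both for 1 of 32, Ifit2, at -2.41 ± 0.66 (adjusted p = 0.00756). Cxcl10 fell by 3.69 on the log2 scale in brain and by 6.64 in heart, and the difference of the lung from both, -0.54 ± 1.02, did not pass (adjusted p = 0.823). Trim12c differed at -2.05 ± 0.45 (adjusted p = 0.000988). Of the 56 still induced genes 5 differed downward and none upward, where 6.4% and 12.6% of all genes did. Serpina3n was among those, with a lung difference of -2.77 ± 0.72 (adjusted p = 0.00492) beside its own changes of 0.47 in brain and 2.60 in heart.

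Over the whole course Lcn2 had its highest median at 24 hr, a time with 2 lung libraries. Lcn2 had medians of 25.4, 828, 1608, 1225, 201 and 13.2 CPM at 0, 6, 24, 48, 72 and 168 hr, and S100a8 17.6, 489, 574, 181, 390 and 6.80 CPM. The 6 hr median of S100a8 includes the 0 of replicate 4 and is 693 CPM without it, above that at 24 hr. At 168 hr Lcn2 (7.06 to 16.7 CPM) lay within its 0 hr range, while S100a8 (3.28 to 47.5 CPM) overlapped its own. Cxcl10 was at 169 CPM at 6 hr, 137 at 24 hr (2 libraries of 8.62 and 264 CPM), 9.00 at 48 hr and 3.02 at 168 hr. Ackr1 and Pla1a, at 28.0 and 43.9 CPM at 48 hr, had medians of 199 and 199.7 CPM at 24 hr and 2.61 and 0.573 CPM at 168 hr. Hmcn1 had medians of 25.2, 0, 2.11, 5.20, 20.5 and 31.5 CPM over the same 6 times, and Antxr2 33.8, 0, 18.8, 21.4, 22.8 and 85.7 CPM. Those of Ly96 were 16.2, 0, 51.1, 21.7, 33.2 and 16.0 CPM. Its 2 libraries at 24 hr (49.9 and 52.4 CPM) lay above all its libraries at 0 hr and 48 hr. These later levels were not tested here.

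**Figure D5:**
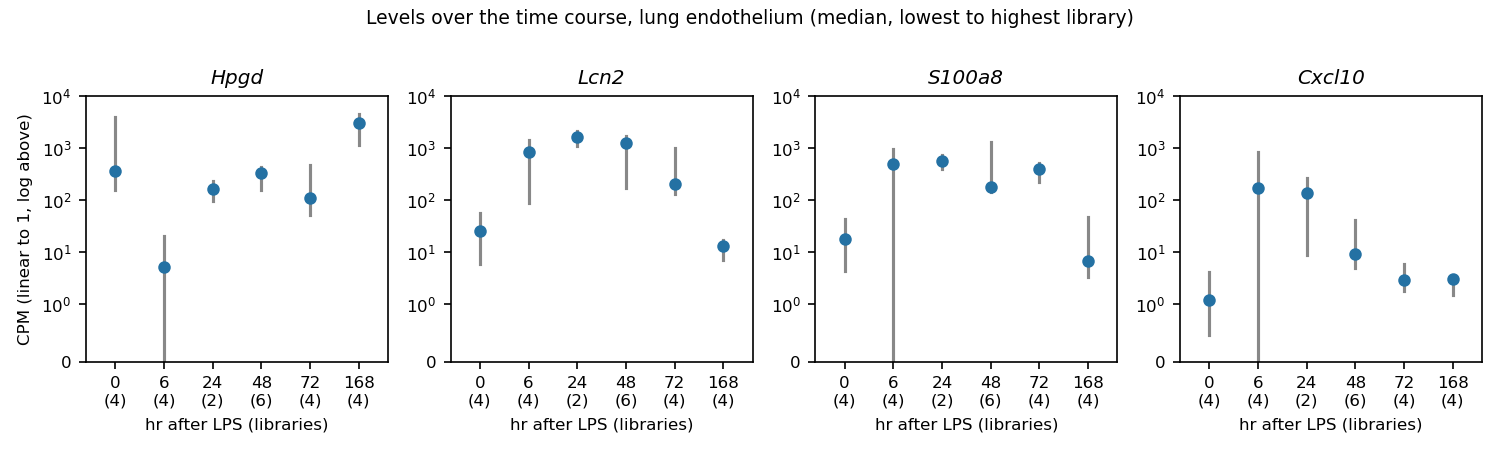
Median level (point) and lowest to highest library (line) of Hpgd, Lcn2, S100a8 and Cxcl10 in CPM (linear to 1, log above) at 6 times after LPS, with the number of lung libraries in brackets under each time. Hpgd dips to a median of 5.02 CPM at 6 hr and is at 332 CPM at 48 hr, while Lcn2 and S100a8 are at 1225 and 181 CPM at 48 hr and Cxcl10 at 9.00 CPM.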

How the data were processed

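Ribosome-bound RNA of endothelial cells from RiboTagEC mice was sequenced as TruSeq mRNA libraries on an Illumina instrument. Reads were aligned with STAR 2.4.2 to mm10 and counted per gene with HTSeq 0.6.1 by the authors, who deposited raw counts, 1 table per sequencing run. The annotation release and strand setting are not given in the sources used here. The 217 runs were summed to 98 libraries by tissue, time and replicate number. Of these, 18 with under 3% of reads on genes were left out, 6 of them from lung, and the 5 summary rows of each table were kept out of library sizes. Of 52550 gene rows 52403 were matched to a symbol from the identifiers. The labels do not state separate mice or pairs.

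Genes passing edgeR's expression filter were tested in edgeR 4.0.16 (R 4.3.3) with its quasi-likelihood test, TMM scaling and the library series as a covariate, in 1 fit of 24 lung libraries, with Benjamini-Hochberg adjustment at 0.05. The series are the 4 naming patterns of the deposited files and are not stated to be batches. Standard errors were obtained from each fold change and its F statistic, and CPM values use TMM. Lung was set against the mean of brain and heart in a second fit of 80 libraries. Alternatives were 29 fits, among them DESeq2 1.42.0, limma-voom (limma 3.58.1) and 14 that each left out 1 library. The scripts were tested on simulated data. Tables and plots used Python 3.11.15, numpy 2.4.6, pandas 2.3.3 and matplotlib 3.10.9.

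The rule for named genes took up to 10 genes a direction or set, whose log2 CPM averaged 5 or more and whose groups do not overlap, the called or most abundant members of each list, and defining markers. It named only Hpgd and Lcn2 by size. Other genes beyond the lists were chosen after their values were seen. The members and lists were chosen with earlier results of these data known. A list is described by its counts and median beside those of all genes tested. Promoters came from RefSeq (GRCm38.p6).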

Additional observations from a re-analysis of the deposited data

Results flagged for a closer look

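Samples far from the others were looked for with Dixon's ratio, the gap of the extreme library over the range of its group, in 146 groups, and 26 were found. The usual rate of 1 in 20 groups does not hold for libraries of such uneven depth with many values at 0, and nothing is read from this count. At 6 hr replicate 3 was alone in holding counts for Hmcn1, Rspo3, Ly96, Antxr2, Casp6, Rnd2, Zfpm1, Mctp1 and Svip. The ratio of 1 in each is fixed by the other libraries at 0. The shallow 6 hr replicate 4 was the extreme library for Il1r2 (0.885), Procr (0.859), S100a8 (0.868), S100a9 (0.913), Retnlg (0.960), Ifit1 (0.908), Isg15 (0.844), Trim12c (0.887), Oasl2 (0.948), Gbp4 (0.923) and Gbp5 (0.899). The 6 hr replicate 2 was extreme for Ackr1 (0.831), 48 hr replicate 6 for Rnd2 (0.744), Zfpm1 (0.669) and Cxcl10 (0.658), 0 hr replicate 1 for Vcan (0.888) and 0 hr replicate 4 for Usp18 (0.905).

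The change from 6 hr to 48 hr differed between lung and the mean of brain and heart for 18 of the 50 genes examined one by one. The calls are those of edgeR's test of that difference in the joint fit, whose lung calls are less strict than the main ones. The log2 difference was 4.76 for Hpgd, 3.03 for Hmcn1, 5.77 for Rspo3, 4.06 for Ly96, 3.54 for Antxr2, 2.32 for Casp6, 6.02 for Rnd2, 2.65 for Zfpm1, 2.81 for Mctp1 and 5.93 for Svip, the regained genes with counts at 6 hr, which were chosen on the lung contrast. For Memo1 (10.46), Fam189b (9.23) and Stfa2 (9.56) the fitted values rest on lung libraries at 0 counts and are no bounds. The difference was 1.98 for Tspan8, -2.77 for Serpina3n, -2.41 for Ifit2, -2.05 for Trim12c and -1.27 for Pecam1.

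The 48 hr replicate 5, left out for its low share of reads on genes, held 53.4 CPM of Lcn2 and 11.3 CPM of Saa3 without TMM scaling, while the left-out 0 hr replicate 5 held 0 of each with a floor of 3.96 CPM.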

How the results depend on the processing

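Counts are given in the order 48 hr against 6 hr, higher and lower, 6 hr against 0 hr, higher and lower, 48 hr against 0 hr, higher and lower, genes regained, genes still induced, and list members higher and lower at 48 hr than at 6 hr, where the main values are 15 and 21, 436 and 388, 73 and 29, 12, 56, and 3 and 3. DESeq2 gave 455 and 784, 1549 and 746, 341 and 168, 291, 244, and 23 and 80. Limma-voom gave 0 and 0 between the times, 104 and 61 for 48 hr against 0 hr, 0 regained, 75 still induced, and 0 and 0 list members. RLE scaling gave 47 and 134, 766 and 393, 74 and 28, 33, 60, and 6 and 28. Without a low-count filter the counts were 186 and 433, 933 and 556, 196 and 98, 109, 143, and 16 and 46. Without the term for library series they were 129 and 155, 519 and 478, 112 and 58, 87, 78, and 9 and 18. With only the 0, 6 and 48 hr libraries they were 1 and 0, 68 and 32, 14 and 1, 0, 4, and 0 and 0, and with only series 1 and 2 they were 1 and 0, 120 and 76, 24 and 1, 0, 14, and 0 and 0. With all lung libraries they were 150 and 44, 272 and 236, 143 and 21, 44, 58, and 7 and 7, and with libraries of at least 1000000 counts 32 and 80, 442 and 275, 78 and 42, 25, 60, and 4 and 22. Without the 8 loci they were 15 and 18, 390 and 438, 65 and 32, 12, 50, and 3 and 3. The cause of these shifts was not tested.

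Further choices were made after seeing the data. Without 6 hr replicates 2 and 4 together the counts were 6 and 50, 400 and 146, 149 and 95, 5, 101, and 1 and 17. Without the 3 libraries with over 50% of counts on the 8 loci they were 5 and 25, 361 and 127, 108 and 62, 4, 78, and 1 and 12.

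Leaving out 1 library at a time gave 3 to 3263 genes higher and 1 to 657 lower for 48 hr against 6 hr, 89 to 1080 and 114 to 3817 for 6 hr against 0 hr, 17 to 133 and 4 to 80 for 48 hr against 0 hr, 2 to 2847 regained, 7 to 87 still induced and 0 to 95 and 0 to 55 list members. The highest counts of regained genes and of genes higher or lower between 48 hr and 6 hr came without 6 hr replicate 3, the deepest of that time. Without 48 hr replicate 1 there were 3 and 4 genes called between the times and 2 regained, without 48 hr replicate 2 there were 3 and 1 and 2 regained, without 6 hr replicate 1 6 and 8 and 5 regained, and without 6 hr replicate 2 6 and 14 and 5 regained. Without 0 hr replicate 3 there were 7 still induced genes, without 0 hr replicate 2 there were 18, without 0 hr replicate 4 and without 48 hr replicate 3 there were 31 each, and without 6 hr replicate 2 there were 87.

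The labels do not say whether replicate numbers pair the libraries, and the main fit does not pair them. Deviations of the same-numbered libraries from their group means correlated across genes at -0.11, -0.08, 0.32 and -0.33 for replicates 1 to 4. Those of different numbers ran from -0.41 to 0.37, so that these correlations cannot decide whether pairs exist. With the replicate block and library series the counts were 7 and 5, 280 and 436, 57 and 7, 6, 39, and 2 and 1.

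Over the 50 genes examined one by one and 29 alternatives, the change between 48 hr and 6 hr kept its direction and its side of the threshold in 1171 of 1450 fits, while 163 calls were lost and 76 gained. In the other 40 the sign changed, in each case for a gene without a call: Ngp (9 fits), Procr (6), Kdr and S100a9 (5 each), Ackr1 and S100a8 (3 each), Lcn2, Cdh5 and Serpina3n (2 each) and Nfkbiz, Pla1a and Saa3 (1 each). No called change reversed. The 6 hr level is limited by depth, since 1 count of replicate 4 stands for 17.6 CPM.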
